A study of Homo sapiens with 4 samples.

Results

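Glucose uptake, glycolysis and the fate of pyruvate were followed through 36 genes grouped by function. They code for 3 glucose transporters, 5 enzymes of the hexose phosphates, 6 enzymes and regulators of the phosphofructokinase step, 9 enzymes from aldolase to pyruvate kinase, 6 proteins of lactate formation and of lactate and pyruvate transport, and 7 subunits and kinases of pyruvate dehydrogenase. On the arrays 34 of them were read by at least 1 probe set annotated to that gene alone, out of 19775 such genes. The lactate transporters SLC16A1 and SLC16A3 had no such probe set and were not analysed here. The neuronal-type glucose transporter SLC2A3 and the kinase PDK4 lay below the filter on low values, which kept 32 members among 12728 genes. Each gene is given by its brightest probe set.

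RNA came from MDA-MB-361, an established human HER2+ breast cancer cell line. All cultures carried the pLKO-puro lentiviral vector and were grown in the medium recommended by ATCC. In 1 culture the vector was the pLKO control, and in the other 3, labelled shDCD clones 1, 2 and 3, it held a different short hairpin RNA against dermcidin (DCD), a secreted growth and survival factor. There was 1 Affymetrix U133 Plus 2.0 array per culture, so the comparison asks how the transcripts of glucose metabolism differ from pLKO in cells that carry hairpins against DCD. The study calls the derivatives clones in some places and cell pools in others, and nothing states that a clone grew from a single cell.

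Intensities are given after quantile normalization, in which the arrays are set to 1 common distribution, and after values under 16 were raised to 16, called the floor below. Of the deposited values of an array 39.3% to 55.1% were under 16, clone 3 having the most. The floor was applied after normalization, so these are not the shares that were raised to it. The signal over background and the number of arrays limit the precision. DCD itself had deposited intensities of 7 in clone 1, 6 in clone 2, 2.7 in clone 3 and 2 in pLKO, all under the floor, so the arrays do not check its knockdown. The study reports lower DCD mRNA and protein in its shRNA derivatives by RT-PCR, immunocytochemistry and immunoblot. All 8 luminal epithelial markers lay above the floor on all 4 arrays, with summed normalized intensities of 17203 in pLKO and 21633 to 29243 in the clones. Single markers did not all follow the sum. As deposited, GATA3 had 3460, 3990 and 3698 in clones 1, 2 and 3 against 1239 in pLKO. EPCAM had 2064, 4191 and 461 against 3082. Of 4 markers of other cell types, COL1A1 and PECAM1 were above the floor on every array and VIM and PTPRC were not. Their summed intensities were 279 in pLKO and 231 to 490 in the clones. In RNA from whole cultures, fewer cells of a kind and less transcript per cell cannot be told apart.

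Glycolysis splits glucose into pyruvate in the cytosol and yields ATP and NADH. Most of its steps are served by a small family of isoenzymes that differ in regulation and in the tissues that use them. Pyruvate is then reduced to lactate by lactate dehydrogenase, or enters mitochondria and is converted to acetyl-CoA by pyruvate dehydrogenase, which the PDK kinases switch off by phosphorylation. Many tumor cells send much of their pyruvate to lactate even when oxygen is present. The hypoxia-inducible factors and MYC are known activators of several of these genes.

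Transcripts of glycolysis were mostly lower in the shDCD clones than in pLKO. Of the 32 members, 19 were lower in all 3 comparisons, beside 21.3% of all genes tested, and 2 were higher in all 3, beside 18.8%. The other 11 lay on both sides of pLKO. The median log2 difference of the members from pLKO was -0.62 in clone 1, -0.31 in clone 2 and -1.51 in clone 3, where the median of all genes was 0.01, 0.00 and -0.11. The 19 lower members were spread over every step: 1 transporter, 3 of the hexose phosphate enzymes, 4 of the phosphofructokinase group, 6 from aldolase to pyruvate kinase, both lactate dehydrogenases and 3 PDK kinases. Since the single pLKO array serves every comparison, any other property of that culture enters all of them. Counts and medians over the list are descriptions, with no test.

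By at least 2-fold, 5 members were lower than pLKO in all 3 clones, beside 0.817% of all genes, and 1 was higher, beside 0.55%. At 1.5-fold there were 11 lower, beside 3.3%, and 1 higher, beside 2.56%. The 5 were TPI1, ENO2, PDK1, PFKP and PFKFB3, and the 1 was ALDOC. TPI1, triosephosphate isomerase, which interconverts the products of aldolase, had intensities of 906 in clone 1, 874 in clone 2, 1056 in clone 3 and 3180 in pLKO. The clones lay within 1 narrow band, with a mean log2 difference of -1.75 ± 0.14 (SD, n = 3), and TPI1 was the only member at least 3-fold lower in every clone, beside 0.181% of all genes. No member was 3-fold higher, beside 0.0157%. In clone 3 TPI1 passed that fold by little, at 3.01-fold. ENO2, the enolase best known from neurons, stood at 116, 59.5 and 129 in clones 1, 2 and 3 against 377 in pLKO, a mean log2 difference of -1.97 ± 0.60 (SD, n = 3). Here clone 2 was the lowest array.

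PDK1, a kinase that inactivates pyruvate dehydrogenase, had intensities of 90.9, 41.6 and 26.3 in clones 1, 2 and 3 and 240 in pLKO, with a mean log2 difference of -2.37 ± 0.91 (SD, n = 3). PFKP, the platelet-type phosphofructokinase, had 141, 131 and 28.7 against 373, a mean log2 difference of -2.20 ± 1.30 (SD, n = 3). For both, clone 3 was the lowest array, and clones 1 and 2 also lay well under pLKO. PFKFB3 makes the bisphosphate that activates phosphofructokinase. Its intensities were 43.5, 59.5 and 60.0 against 157, with a mean log2 difference of -1.55 ± 0.27 (SD, n = 3). ALDOC, the aldolase isoenzyme best known from brain, ran the other way: 59.6, 32.8 and 43.7 in the clones, and 8.8 as deposited in pLKO, under the floor. Against the floor ALDOC was at least 3.73-fold higher in clone 1, 2.05-fold in clone 2 and 2.73-fold in clone 3.

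**Figure D1:**
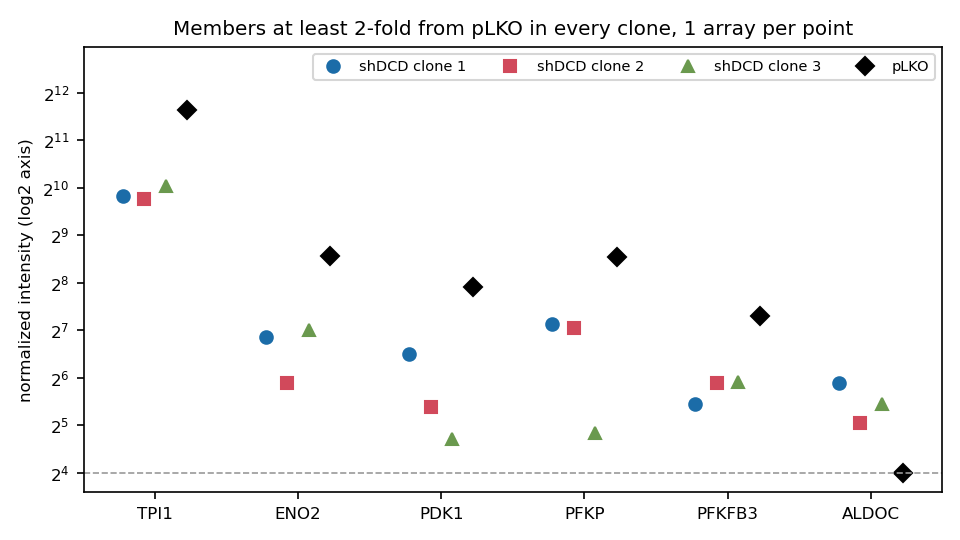
Normalized intensity on a log2 axis of the 6 members that differed from pLKO by at least 2-fold in every clone, with 1 point per array and the floor of 16 as a dashed line. The 3 clones lie below the pLKO point for TPI1, ENO2, PDK1, PFKP and PFKFB3 and above it for ALDOC, whose pLKO point sits on the floor.

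The promoters of these 6 genes are shown because they belong to the members at least 2-fold from pLKO in every clone. Each line gives the 250 bases before a RefSeq transcription start in GRCh38.p14, read in the direction of the gene. Where a gene has more than 1 annotated start, the window with the most matches to the core was picked. For such genes the match in the line shown follows partly from that choice. Capitals mark ACGTG or its reverse complement CACGT, a form of the core of the hypoxia response element, called the core here. The form GCGTG was not searched for and is not marked. Capitals also mark CACGTG, the E-box bound by MYC and its partners, which holds the core on both strands.
TPI1 (chr12:6867855-6868104, plus strand): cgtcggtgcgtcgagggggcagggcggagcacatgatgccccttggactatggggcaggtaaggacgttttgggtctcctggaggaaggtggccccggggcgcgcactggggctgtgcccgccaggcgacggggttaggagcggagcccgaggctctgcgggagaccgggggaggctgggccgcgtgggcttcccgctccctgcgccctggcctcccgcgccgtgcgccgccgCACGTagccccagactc
ENO2 (chr12:6914330-6914579, plus strand): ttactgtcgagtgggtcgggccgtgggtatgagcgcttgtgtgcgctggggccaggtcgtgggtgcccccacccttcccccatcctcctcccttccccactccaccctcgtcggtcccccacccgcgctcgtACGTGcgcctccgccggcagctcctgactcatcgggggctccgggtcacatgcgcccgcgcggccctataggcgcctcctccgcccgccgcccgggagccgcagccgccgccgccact
PDK1 (chr2:172555840-172556089, plus strand): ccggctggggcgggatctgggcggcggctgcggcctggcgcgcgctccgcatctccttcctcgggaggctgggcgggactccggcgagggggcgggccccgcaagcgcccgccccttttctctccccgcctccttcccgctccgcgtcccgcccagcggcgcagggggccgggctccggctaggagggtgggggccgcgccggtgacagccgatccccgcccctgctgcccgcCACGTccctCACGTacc
PFKP (chr10:3068939-3069188, plus strand): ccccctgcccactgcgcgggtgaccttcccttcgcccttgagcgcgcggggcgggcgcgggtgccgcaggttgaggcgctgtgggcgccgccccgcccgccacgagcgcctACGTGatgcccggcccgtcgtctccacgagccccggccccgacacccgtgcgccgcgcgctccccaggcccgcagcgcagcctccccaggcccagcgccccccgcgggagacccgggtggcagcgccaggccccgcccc
PFKFB3 (chr10:6202682-6202931, plus strand): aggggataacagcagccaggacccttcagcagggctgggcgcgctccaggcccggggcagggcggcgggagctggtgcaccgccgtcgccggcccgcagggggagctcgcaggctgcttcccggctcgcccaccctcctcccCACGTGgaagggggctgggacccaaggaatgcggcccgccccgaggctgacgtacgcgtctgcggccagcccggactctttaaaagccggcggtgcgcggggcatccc
ALDOC (chr17:28576896-28577145, minus strand): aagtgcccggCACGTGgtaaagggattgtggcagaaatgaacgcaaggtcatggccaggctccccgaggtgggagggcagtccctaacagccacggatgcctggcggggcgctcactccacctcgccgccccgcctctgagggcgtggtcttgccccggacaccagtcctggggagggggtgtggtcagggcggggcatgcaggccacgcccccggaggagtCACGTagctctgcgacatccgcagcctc
The core stood 17 bases before the start in TPI1, 118 in ENO2, 139 in PFKP, 17 and 8 in PDK1, and 28 in ALDOC, counted from its first base. An E-box stood 108 bases before the start in PFKFB3 and 240 in ALDOC. PFKP has 4 annotated starts and TPI1, PDK1 and PFKFB3 have 2 each, and in each of these genes 1 window held the core. Over windows that reach 50 bases past the start, the core was present in 38.5% of 65 windows of 33 members and in 21.4% of all 35116 windows, and CACGTG in 13.8% and 7.26%. Among the members, the share was 30.6% of 36 windows for genes lower in all 3 clones and 52.4% of 21 windows for genes on both sides of pLKO. ALDOC, the member that was higher, held the core too. A match is a description of the letters and not of a bound site, and 3 members (PFKFB2, SLC16A1 and SLC2A3) had no entry.

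Glucose enters these cells by facilitated transport. SLC2A1 (GLUT1), the widespread transporter, had intensities of 372, 304 and 380 in clones 1, 2 and 3 and 555 in pLKO, so the clones lay close together below the control, at a mean log2 difference of -0.66 ± 0.18 (SD, n = 3). A dimmer probe set of SLC2A1 lay at 24.1, 48.2 and 32.0 against 34.6 and thus on both sides. SLC2A10, a transporter of the same family, had 1052, 912 and 231 against 913. Clone 2 was level with pLKO there and only clone 3 stood apart. SLC2A3 had deposited values of 6.7, 7.7 and 6 in the clones, under the floor, and 19.3 in pLKO.

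Phosphorylation by hexokinase traps glucose in the cell. HK1, the common hexokinase of most tissues, had intensities of 375, 533 and 178 against 579 in pLKO. HK2, the form that many tumors add, had 359, 236 and 938 against 675. HK2 was thus lower in clones 1 and 2 and above pLKO in clone 3, the reverse of HK1, whose lowest array was clone 3. GPI, which turns glucose phosphate into fructose phosphate, had 614, 696 and 196 against 1367, a mean log2 difference of -1.64 ± 1.01 (SD, n = 3), and clone 2 missed the 2-fold line at 1.96-fold. Phosphoglucomutase links this pool to glycogen. PGM1 had 65.3, 205 and 42.1 against 254 and PGM2 64.6, 117 and 65.2 against 65.0. PGM1 lay below pLKO in all 3 clones, while PGM2 was level with it in clones 1 and 3 and higher in clone 2.

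Phosphofructokinase is the committed step, and the bifunctional PFKFB enzymes set the level of its activator. Next to PFKP, the liver-type subunit PFKL had intensities of 209, 129 and 125 against 238 in pLKO, and the muscle-type PFKM had 145, 265 and 111 against 232. PFKL was below pLKO throughout and PFKM was not. Among the bifunctional enzymes PFKFB4 had 61.6, 38.0 and 20.5 against 108, with a mean log2 difference of -1.58 ± 0.80 (SD, n = 3), and PFKFB2 had 44.3, 67.4 and 142 against 71.8. PFKFB3 and PFKFB4 were thus lower in every clone, and PFKFB2 ranged from below pLKO in clone 1 to above it in clone 3.

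From aldolase to pyruvate the enzymes are abundant. ALDOA, the main aldolase of proliferating cells, had intensities of 3318, 4789 and 1596 against 4449 in pLKO and lay on both sides by this probe set. Its 2 other tested probe sets were lower in every clone. They gave -0.59, -0.04 and -1.36, and -1.22, -0.41 and -2.36, on the log2 scale in clones 1, 2 and 3. GAPDH, which makes NADH, had 10590, 9478 and 9780 against 8308, a mean log2 difference of 0.26 ± 0.08 (SD, n = 3). Its 2 other tested probe sets lay on both sides of pLKO, at 0.16, 0.03 and -0.02, and at 0.05, -0.02 and -0.56, in clones 1, 2 and 3. The direction of GAPDH also hangs on the scaling, since the mean of its brightest probe set was -0.092 after median centring and -0.23 as deposited. PGK1, the first ATP-yielding kinase, had 1126, 1892 and 148 against 3230, and clone 3 was 21.8-fold lower while clone 2 was 1.71-fold lower. PGAM1, phosphoglycerate mutase, had 1239, 1449 and 461 against 2284. The same order of arrays, clone 3 lowest and clone 2 nearest to pLKO, held for ENO1, the general enolase, at 1070, 1483 and 306 against 2845. PKM, pyruvate kinase, had 2487, 2468 and 762 against 3233. It was 1.30-fold and 1.31-fold lower in clones 1 and 2 and 4.25-fold lower in clone 3.

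Lactate dehydrogenase regenerates NAD+ for GAPDH. LDHA, the subunit that favors lactate formation, had intensities of 2632, 1464 and 1219 against 4031 in pLKO, a mean log2 difference of -1.27 ± 0.58 (SD, n = 3). LDHB, the subunit of oxidative tissues, had 728, 1005 and 625 against 1204. All clones lay below pLKO for both subunits. The mitochondrial pyruvate carrier is built of MPC1, at 185, 212 and 322 against 215, and MPC2, at 108, 212 and 81.5 against 118. Neither carrier subunit kept 1 direction.

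In the pyruvate dehydrogenase complex and its kinases, directions varied with the gene and the probe set. The catalytic subunit gene PDHA1 had intensities of 505, 297 and 428 against 338 in pLKO, PDHB had 286, 275 and 95.4 against 282, and DLAT, the acetyltransferase core, had 94.2, 76.1 and 50.3 against 53.1. By their brightest probe sets none of these 3 genes lay on 1 side of pLKO in all clones. DLD, a further subunit of the complex counted below among the neighbouring genes, was below pLKO in every clone, at 92.8, 209 and 25.2 against 242. PDK2 had 82.2 and 103 in clones 1 and 2, was under the floor in clone 3 (4.4 as deposited) and had 110 in pLKO, so that clone 3 was at least 6.85-fold lower. PDK3 had 151, 131 and 104 against 162. By their brightest probe sets all 3 measured kinases were below pLKO in every clone. Of the 4 tested probe sets of PDK3 only 2 were lower in every clone, and of the 2 of PDK2 1 was higher in every clone. PDK1 had the largest difference in clones 1 and 2, and in clone 3 its order with PDK2 is not known. PDK4 was under the floor on all 4 arrays.

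**Figure D2:**
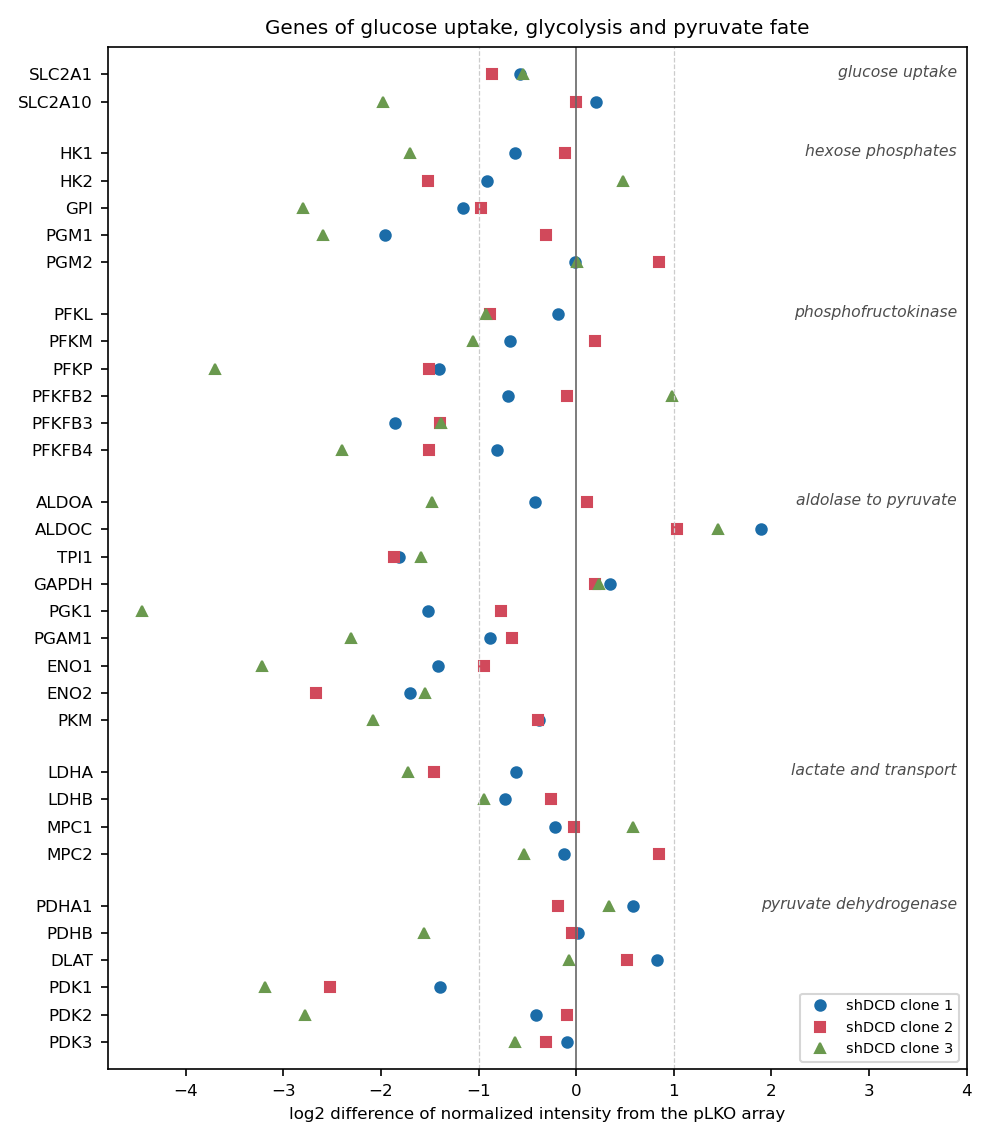
Difference from pLKO in log2 normalized intensity for the 32 members tested, by step, with 1 symbol per clone and dashed lines at a 2-fold difference. Most symbols lie left of 0, the green triangles of clone 3 reach farthest, to -4.44 for PGK1, and ALDOC alone lies past the right dashed line in every clone.

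Clone by clone, 9 of the 32 members (28.1%) were at least 2-fold lower than pLKO in clone 1, beside 9.09% of all genes. In clone 2 these were 8 members (25%), beside 4.34%, and in clone 3 they were 19 (59.4%), beside 22.4%. ALDOC was the 1 member at least 2-fold higher in each clone, beside 7.2%, 3.33% and 14.9% of all genes. Clone 3 thus had the most low members and also the most genes of any kind at that fold. Without clone 3, 22 members were lower in both comparisons left, beside 30.8% of all genes, and the same 5 members were at least 2-fold lower, beside 2.18%. Without clone 2 there were 9 at that fold, beside 4.2%, the 4 added being GPI, PGM1, PGK1 and ENO1, and without clone 1 there were 7, beside 1.7%, with PFKFB4 and LDHA added. Lower by any amount were 22 without clone 2, beside 34.2%, and 21 without clone 1, beside 29.3%. At least 3-fold lower were 3 without clone 2, beside 0.684%, 2 without clone 3, beside 0.542%, and 1 without clone 1, beside 0.401%.

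The 3 clones were also tested against pLKO with limma, fitted to all 27307 probe sets that passed the filter. The pLKO array is then assumed to vary like the clones, and 2 residual degrees of freedom remain. No probe set passed an adjusted p of 0.05. Without adjustment 206 probe sets had p under 0.05, 125 lower (0.458%) and 81 higher (0.297%). Among the 32 members PDK1, TPI1, ENO2 and PFKFB3 did, beside 0.495% of all genes, and all 4 were lower. No member did among the genes that were higher, beside 0.22%. The Benjamini-Hochberg adjusted p of every member was 0.9998. A p of that kind does not show that the levels were equal, and the SD over the clones passed 1 on the log2 scale for 8 of the members.

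Pairs of isoenzymes or subunits were then set against each other. For 14 pairs the log2 difference from pLKO of 1 gene was subtracted from that of the other in each clone, and the result kept 1 sign in 6 pairs. ALDOC exceeded ALDOA by 2.32 in clone 1, 0.93 in clone 2 and 2.93 in clone 3 on this scale, a mean of 2.06 ± 1.02 (SD, n = 3) that counts ALDOC in pLKO at the floor. PDK3 lay above PDK1 by 1.30, 2.22 and 2.56, PGM2 above PGM1 by 1.95, 1.16 and 2.60, and PFKFB2 above PFKFB3 by 1.16, 1.31 and 2.38. In the last 3 of these pairs the second gene named was below pLKO in every clone, while ALDOA lay on both sides of it by its brightest probe set. PFKP lay below PFKL, with values of -1.21, -0.63 and -2.77. PDK2 exceeded PDK1 by 0.98 in clone 1 and 2.44 in clone 2. In clone 3 PDK2 was under the floor, so the value of 0.41 there is an upper bound, and with a floor of 1 it was -0.91 and 5 pairs kept 1 sign.

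In the other 8 pairs the clones disagreed. HK2 minus HK1 was -0.29 in clone 1, -1.40 in clone 2 and 2.17 in clone 3, and ENO2 minus ENO1 was -0.30, -1.72 and 1.67. In both pairs clone 3 stood opposite to the others, and without clone 3, 10 of the 14 pairs kept 1 sign. LDHB minus LDHA was -0.11, 1.20 and 0.78. In an exact two-sided permutation test over the 4 arrays the smallest p possible is 0.25, reached by the first 4 pairs named, and no adjusted p over the 14 pairs was under 0.875. The test cannot pass 0.05 in this design.

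**Figure D3:**
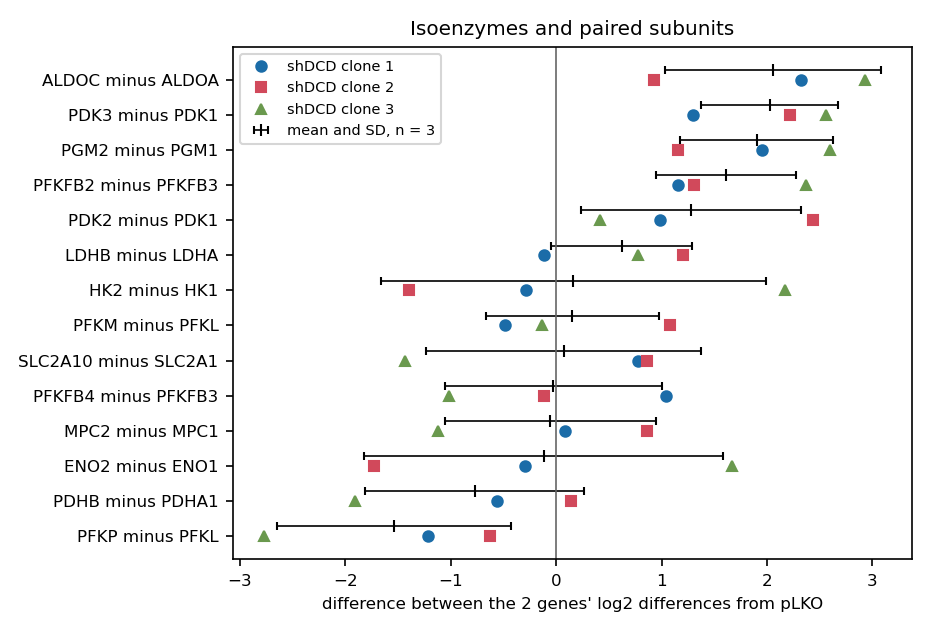
For each of 14 pairs, the difference between both genes' log2 differences from pLKO, with 1 symbol per clone and the mean with SD (n = 3) drawn above. The 5 pairs at the top lie right of 0 in every clone, PFKP minus PFKL lies left of it, and for HK2 minus HK1 and ENO2 minus ENO1 clone 3 lies across 0 from the others.

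RNA quality differed between the arrays and moved with the size of the differences. For GAPDH the intensity of the 3' control over that of the 5' control was 2.18 in clone 1, 1.02 in clone 2, 13.1 in clone 3 and 1.09 in pLKO, and for ACTB the same ratio was 9.67, 2.58, 42.6 and 5.29. Clone 3, where the members' median was lowest, had the highest ratios, and clone 2 had ratios below those of pLKO. As deposited, GAPDH in clone 3 differed from pLKO by -0.60 at the 3' control, -2.57 at the middle one and -4.18 at the 5' one on the log2 scale. The same gene in clone 2 differed by 0.02, 0.06 and 0.13. The part of RNA quality in the values of the 3 clones was not tested.

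Several members were read by more than 1 probe set. Of 63 tested probe sets of the members 33 were lower in all 3 clones, beside 20% of all probe sets tested, and 7 were higher, beside 19.4%. Among 20 genes with more than 1 tested probe set, 6 had all of them lower in every clone: ENO1, LDHB, PDK1, PFKL, PGK1 and TPI1. The 5 probe sets of PGK1 ran from -1.02 to -0.61 in clone 2 and from -6.26 to -1.84 in clone 3 on the log2 scale. In clone 3 the lowest of them was under the floor, so its difference was -6.26 or lower. ENO1 likewise ran from -0.94 to -0.41 in clone 2 and from -4.21 to -0.57 in clone 3. For TPI1 the 2 bright probe sets lay between -1.94 and -1.59 in all clones and the dim one between -0.82 and -0.22.

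For other genes the probe sets differed in sign. The brighter probe set of PKM gave -2.09 in clone 3 and the other 2.10. PFKP, whose brightest probe set was lower in every clone, had a dim second one that was under the floor in pLKO and higher than it by at least 1.31, 0.60 and 1.23 in clones 1, 2 and 3. PDK2 and HK2 each had a dimmer probe set that was higher in every clone, that of HK2 also being under the floor in pLKO. So did PDHA1 and PFKFB2, whose brightest probe sets lay on both sides. The 2 tested probe sets of DLAT had opposite signs in each clone, the dimmer giving -0.82, -0.19 and 0.86 in clones 1, 2 and 3. PDK1 was lower by both tested probe sets, the dimmer giving -0.30 in clone 1, -0.69 in clone 3 and a value under the floor in clone 2. GAPDH has many processed pseudogenes. Probe sets of the _x_at and _s_at kind can match several transcripts, so the share of their signal from near copies is uncertain. Without such probe sets 19 members were left, 9 of them lower in all 3 clones, beside 21.1% of genes.

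**Figure D4:**
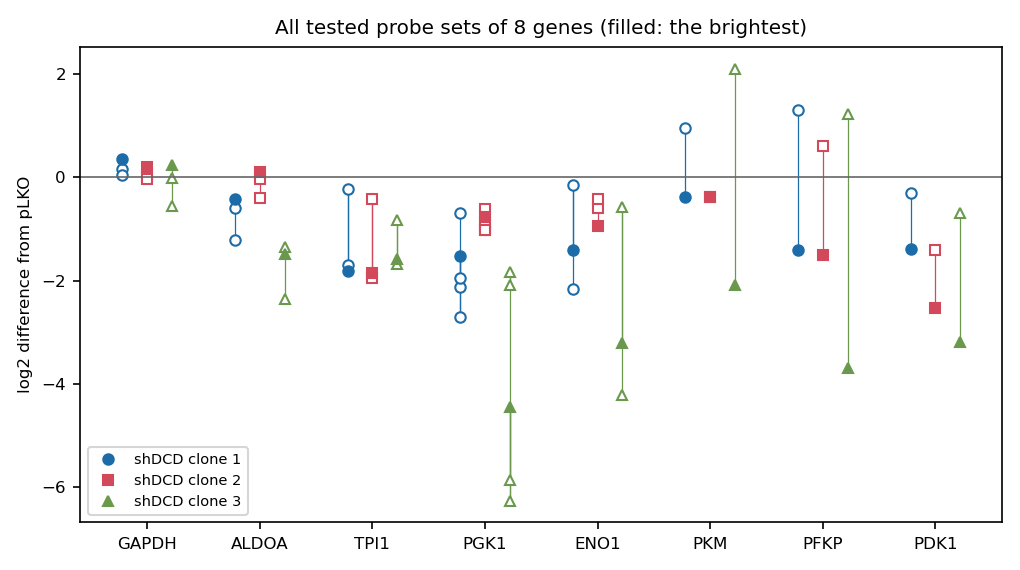
Log2 difference from pLKO of every tested probe set of 8 members, by clone, with the brightest probe set of each gene filled, a line joining probe sets of 1 gene and clone, and values under the floor drawn at the floor. PGK1, TPI1, ENO1 and PDK1 lie below 0 throughout, the line of clone 3 is the longest for every gene but TPI1, and GAPDH, ALDOA, PKM and PFKP cross 0.

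Genes of neighbouring pathways lay mostly on both sides of pLKO. Of 90 such genes in 8 lists 62 were tested, of which 14 (22.6%) were lower in all 3 clones, beside the 21.3% of all genes, and 8 (12.9%) were higher, beside 18.8%. The share of lower genes was thus near the background, and the counts by list below are descriptions of few genes. Their median log2 difference was -0.20 in clone 1, -0.03 in clone 2 and -0.27 in clone 3. PYGB, the brain-type glycogen phosphorylase, was the 1 gene among them at least 2-fold from pLKO in every clone, with intensities of 36.7, 77.5 and 63.4 against 168. Glycogen genes held the most lower members, 5 of 9 tested, the others being GYS1, GBE1, UGP2 and PPP1R3B, and 1 higher, PYGL. The citrate cycle had 3 lower and 2 higher of 13.

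In the other glucose transporters 1 of 5 was higher (SLC2A5), and in the other glycolytic genes 1 of 8 was lower (ADPGK) and 1 higher (BPGM). The pentose phosphate list had PGLS lower and RPIA higher of 6, pyruvate fate had DLD and ME2 lower of 8, and the hexosamine list had GFPT1 lower of 3. Of 10 regulators of glycolytic transcription MYC was lower and MLXIP and PPARGC1A were higher. MYC had intensities of 71.5, 30.6 and 87.0 against 135, with clone 2 the lowest. HIF1A, ARNT and EPAS1, which code for hypoxia-inducible factors, lay on both sides of pLKO. Apart from PYGB, these genes are named here for their direction, after their values were seen.

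**Figure D5:**
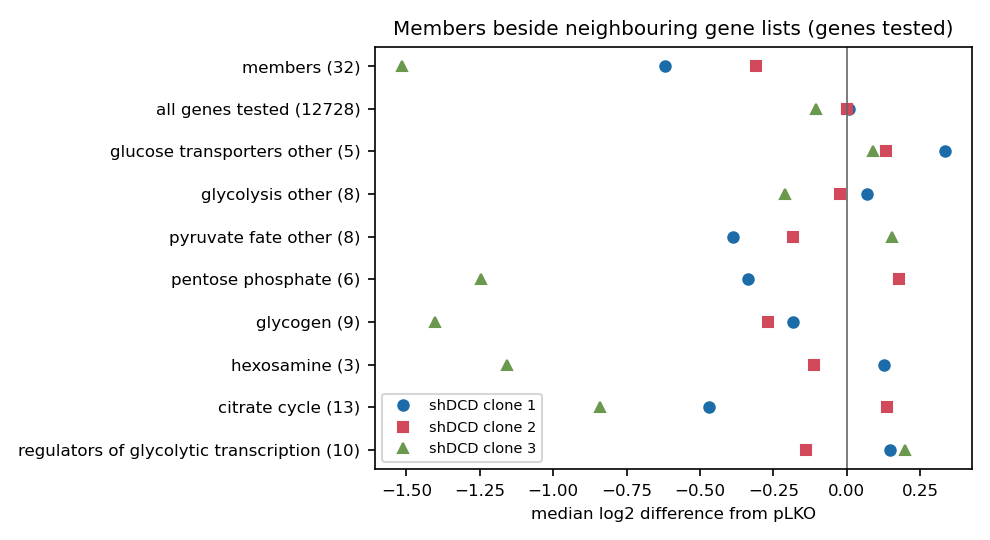
Median log2 difference from pLKO by clone for the 32 members, for all 12728 genes tested and for 8 neighbouring lists, with the number of genes tested in brackets. The members have the lowest median of the rows shown in each clone, at -0.62, -0.31 and -1.51, and the glycogen list comes nearest in clones 2 and 3.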

How the data were processed

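Total RNA from 4 MDA-MB-361 cultures was measured on Affymetrix U133 Plus 2.0 arrays. The authors deposited 1 linear intensity per probe set and array. The study names dChip for its analysis, and what computed the deposited intensities was not given in the sources used here. Array medians ran from 13.4 to 24.7, and the values were taken as not normalized. Intensities of 0 were set to 0.1, log2 values were quantile normalized over all 54675 probe sets, 62 control probe sets were left out, and values under 16 were set to 16. The 27307 probe sets with a mean log2 at or above the median were tested with limma 3.58.1 (R 4.3.3) and Benjamini-Hochberg adjustment.

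Genes were named from the platform annotation through gene identifiers: 41097 probe sets had 1 gene, 1801 several and 11777 none. Promoters came from RefSeq (GRCh38.p14). All members were named, and of the neighbouring lists any gene at least 2-fold from pLKO in every clone. The members, lists and pairs were chosen with earlier results of these data known. Scripts were tested on simulated data, Python 3.11.15 with pandas 2.3.3 made the tables and matplotlib 3.10.9 the plots. Nothing states whether the cultures were handled separately, so p-values describe these arrays only. In limma the spread comes from the 3 clone arrays, since the single pLKO array gives none. Alternatives covered normalization, floor, filter, fold, choice of probe set, limma's prior and each clone left out. A planned comparison of isoenzyme protein sequences was not run.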

Additional observations from a re-analysis of the deposited data

How the results depend on the processing

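The 5 members at least 2-fold lower in every clone became 11 at 1.5-fold (beside 3.3% of all genes), 8 on the deposited values (1.41%), 3 with all probe sets of a gene averaged (0.55%), 3 without _x_at and _s_at probe sets (0.826%), and 5 to 9 with 1 clone left out (1.7% to 4.2%). The 19 members lower in all 3 clones became 9 of 19 without _x_at and _s_at probe sets (21.1% of all genes), where 14 members had a mean below 0, the median in clone 3 was -0.79 and 2 of 4 isoenzyme pairs kept 1 sign. With 1 clone left out, 8 to 10 of 14 pairs did, fewer comparisons being asked of each. Members higher in all 3 numbered 1 after median centring (11.8% of all genes), as deposited (7.24%), at a floor of 64 (10.1%) and with an upper quartile filter (19.7%), and those at least 2-fold higher numbered 0 under the last 3 (0.228%, 0.0943% and 0.423%). Those at least 3-fold lower were 3 after median centring (0.369%), 3 as deposited (0.416%), 0 with probe sets averaged (0.157%), 0 without _x_at and _s_at (0.173%), and 1 to 3 with a clone left out (0.401% to 0.684%), and 1 was at least 3-fold higher at a floor of 1 (0.904%). The median of the members was -1.25 in clone 1, 0.043 in clone 2 and -2.82 in clone 3 as deposited, where all genes stood at -0.42, 0.35 and -1.07, so that the members lay -0.84, -0.30 and -1.75 from all genes. After median centring the median in clone 3 was -2.20, with all genes at -0.53. GAPDH had a mean of -0.092 after median centring and -0.23 as deposited. limma called 2 members at a floor of 64 (PFKFB3 and PFKFB4, of 435 probe sets) and 1 without a filter (SLC2A3, of 1326), where all clones sat on the floor and had no spread. Of 275 values of single members under alternatives, 21 had another sign than the mean reported: 2 of GAPDH, and 19 of 8 members that lay on both sides of pLKO. By size 242 moved by less than 1 SD, and 31 others by more. Unless said, the cause was not tested. No paired analysis was possible because there was only 1 pLKO array.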
